A study of Mus musculus with 2 samples.

Results

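The core feedback loop of the circadian clock was followed through 10 genes in RNA from mouse haematopoietic stem cells, the self-renewing source of every blood lineage, sorted from bone marrow. The genes were chosen by name, as members of the loop, with earlier results of these data known. They were the repressor genes Per1, Per2, Per3, Cry1 and Cry2, the activator genes Arntl, Clock and Npas2, and the nuclear receptor genes Nr1d1 and Nr1d2. Each was found as a single row, so they make up 10 of the 23961 gene symbols used. Of these, 8 reached 1 FPKM in one library or both, and Clock and Npas2 did not. FPKM scales the sequenced fragments of a gene by its length and by the size of the library. Levels of genes can thus be set side by side, but differences between libraries still depend on the scaling chosen.

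The clock of mammalian cells is a loop in which a protein pair switches on the genes of its own inhibitors. BMAL1, the product of Arntl, pairs with CLOCK or with its close relative NPAS2 and binds E-boxes in the promoters of the Per, Cry and Nr1d genes. PER and CRY proteins then enter the nucleus and inhibit the pair, while the receptors REV-ERB alpha and beta, the products of Nr1d1 and Nr1d2, repress Arntl through ROR elements. As a result RNA from Arntl and RNA from the Per and Nr1d genes peak at opposite phases of the day in many mouse tissues.

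One library came from mice labelled Per2def, which are Per2-deficient, and 1 from mice labelled Per2wt, which are wild type. All were untreated C57BL/6 mice kept on 12 hours of light and 12 hours of dark for at least 2 weeks beforehand. The allele behind the deficiency, the sort markers, the age and number of mice per library and the hour of collection were not stated in the labels. There was 1 library for each genotype, which leaves no replicates and no test, and a difference between the genotypes cannot be told apart from any other difference between these libraries, the hour of collection included. The names Per2def library and Per2wt library below mean the libraries so labelled.

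Of 12 stem and progenitor markers, 9 reached 1 FPKM, among them Kit at 43.6 FPKM in the Per2def library and 42.7 FPKM in the Per2wt library, and Cd34 at 83.9 FPKM in the Per2def library and 90.5 FPKM in the Per2wt library. Flt3, a receptor gene known from multipotent progenitors, stood at 51.4 FPKM in the Per2def library and 48.8 FPKM in the Per2wt library. The 3 markers under 1 FPKM in both libraries were Slamf1, Fgd5 and Hoxb5, all known as markers of long-term stem cells. Fgd5 stood at 0.977 FPKM in the Per2def library and 0.964 FPKM in the Per2wt library. Slamf1 stood at 0.522 FPKM in the Per2def library and 0.245 FPKM in the Per2wt library, and Hoxb5 at 0.373 FPKM in Per2def and 0.154 FPKM in Per2wt. Of the 9 markers at 1 FPKM or more, 3 were higher in the Per2def library and 6 lower. Of all genes that reached that floor, 62% were higher. Stem cells is the labels' name for these cells, and their sort markers are not given there. The files give no read totals, so exact depth is unknown. Among 3232 genes of low level the commonest ratio of Per2def to Per2wt FPKM was 0.805, the value that single fragments would give if the Per2def library was 1.24 times as deep. Numbers of fragments given below for single genes take the commonest small value per kilobase as 1 fragment and use annotated transcript lengths. They are approximate and carry no interval.

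Some promoters of the loop hold letters through which its arms are known to act. RefSeq (build GRCm38.p6) gave 13 windows for 9 of the 10 genes, each running from 250 bases before to 50 bases after an annotated transcript start. Per2 was not in that table. The windows were searched on both strands for the E-box CACGTG, the related E-prime box CACGTT, the D-box TTATGTAA, the ROR element cores TAGGTCA and TGGGTCA, and the cAMP element TGACGTCA. No motif of this set overlapped another in these windows. The 5 windows below are shown because together they hold an example of each motif found, in an activator gene, in repressor genes and in a receptor gene. They are written 5′ to 3′ on the strand of the gene, with motif matches in capitals.
Per1, chr11:69098699-69098998, plus strand: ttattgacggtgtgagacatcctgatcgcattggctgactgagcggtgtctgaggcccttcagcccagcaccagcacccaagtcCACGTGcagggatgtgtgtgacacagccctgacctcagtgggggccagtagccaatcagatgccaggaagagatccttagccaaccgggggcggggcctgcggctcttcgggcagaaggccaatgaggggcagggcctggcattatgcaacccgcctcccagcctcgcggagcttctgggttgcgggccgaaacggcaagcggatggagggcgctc
Per3, chr4:151044616-151044915, minus strand: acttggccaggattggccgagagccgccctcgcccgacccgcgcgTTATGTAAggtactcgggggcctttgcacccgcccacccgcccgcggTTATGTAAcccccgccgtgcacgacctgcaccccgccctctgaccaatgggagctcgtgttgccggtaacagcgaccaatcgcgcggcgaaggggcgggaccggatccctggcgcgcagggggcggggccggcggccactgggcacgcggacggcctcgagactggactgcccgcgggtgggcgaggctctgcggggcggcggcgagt
Cry1, chr10:85185005-85185304, minus strand: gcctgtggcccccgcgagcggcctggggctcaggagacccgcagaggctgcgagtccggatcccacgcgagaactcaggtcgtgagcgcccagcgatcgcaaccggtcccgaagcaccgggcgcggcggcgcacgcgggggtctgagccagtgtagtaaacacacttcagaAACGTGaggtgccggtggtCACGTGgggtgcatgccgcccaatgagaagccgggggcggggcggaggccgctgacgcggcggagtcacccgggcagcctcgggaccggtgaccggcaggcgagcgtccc
Arntl, chr7:113207261-113207560, plus strand: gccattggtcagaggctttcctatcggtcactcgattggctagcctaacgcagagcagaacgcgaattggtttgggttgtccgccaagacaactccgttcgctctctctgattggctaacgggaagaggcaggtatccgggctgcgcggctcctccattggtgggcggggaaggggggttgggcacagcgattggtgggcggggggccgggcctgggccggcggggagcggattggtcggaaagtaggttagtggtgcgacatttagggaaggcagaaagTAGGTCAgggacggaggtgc
Nr1d1, chr11:98775328-98775627, minus strand: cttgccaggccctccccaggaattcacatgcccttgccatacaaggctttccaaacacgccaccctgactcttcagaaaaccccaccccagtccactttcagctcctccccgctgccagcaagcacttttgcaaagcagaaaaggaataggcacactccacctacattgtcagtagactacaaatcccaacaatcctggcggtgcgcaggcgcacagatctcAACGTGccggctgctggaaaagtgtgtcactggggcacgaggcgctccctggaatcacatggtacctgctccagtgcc

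In Per1 the capitals mark an E-box whose first base lies 166 bases before the start. The upstream Per1 start is shown, and the window of the other annotated Per1 start held no match. Cry1 held an E-prime box 79 bases and an E-box 60 bases before its start. Cry2, not printed, held an E-prime box 166 bases before its start, and Nr1d1 held one 28 bases before its start. The ends of the Cry2 and Nr1d1 windows were not found in the transcripts of GENCODE, which gave the gene coordinates below. These 2 distances therefore hold for the RefSeq starts only. Per3 held no E-box but 2 copies of the D-box, the element bound by the output factors DBP, TEF and HLF and by their antagonist NFIL3, at 205 and 158 bases before its start. The only exact match to a ROR element core lay in Arntl, 31 bases after the second of its annotated starts, whose window is shown. The window of the first Arntl start held no exact match. Variants of the letters were not searched, so other sites of these kinds may have been missed. An E-box was in 2 of the 13 windows, beside 7.15% of all 32851 promoter windows of the same length. An E-prime box was in 3, beside 4.68% of all windows. A D-box was in 1, beside 0.938%, and the ROR core TAGGTCA was in 1, beside 2.61%. The core TGGGTCA and the cAMP element, in 3.98% and 1.79% of all windows, were in none of the 13. The windows of Clock, Npas2 and Nr1d2 held none of the letters searched. These matches describe sequence only, and none was tested for binding.

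**Figure D1:**
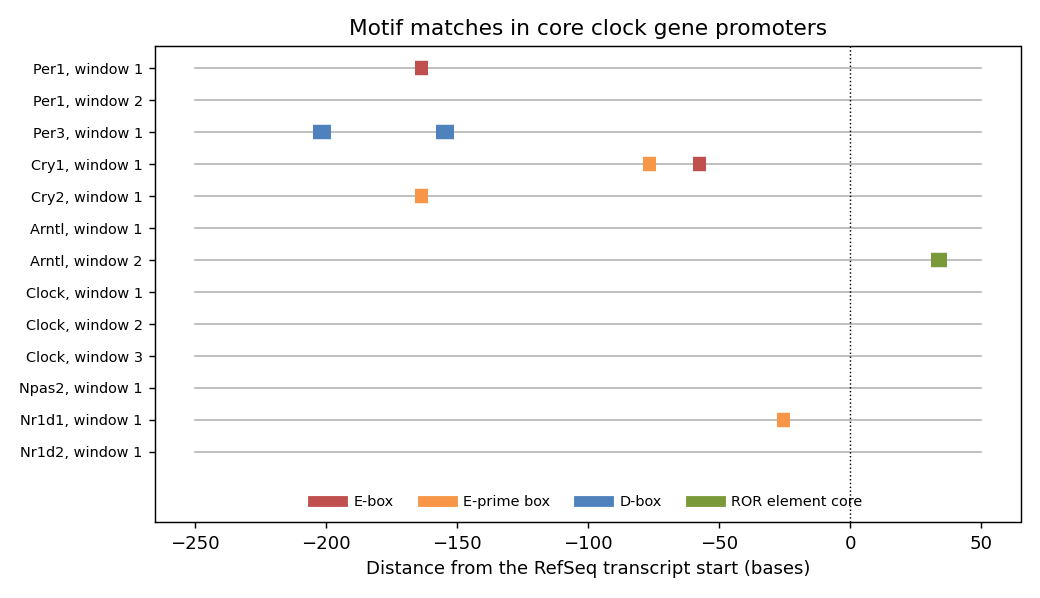
Each line is one 300-base RefSeq promoter window of a core clock gene, with distance in bases from the transcript start (dotted line) on the horizontal axis and coloured blocks for motif matches. E-boxes and E-prime boxes lie in Per1, Cry1, Cry2 and Nr1d1, D-boxes in Per3 and the ROR core in the second of the Arntl windows.

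Per2, the gene the mice are named for, was higher in the library labelled Per2def. Per2 (ENSMUSG00000055866.9, GRCm38 chromosome 1, 91415982 to 91459324, minus strand) stood at 6.16 FPKM in the library labelled Per2def and at 1.96 FPKM in the library labelled Per2wt, a ratio of 3.13. That corresponds to roughly 968 fragments in the library labelled Per2def, against roughly 249 in the library labelled Per2wt. On the log2(FPKM + 1) scale, which is used for all differences here as Per2def minus Per2wt and which understates the change of low genes, the difference was 1.27. Per2 was the only core clock gene at least 2-fold higher on that scale, beside 1.25% of the 11121 genes that reached the 1 FPKM floor in one library or both. None was at least 2-fold lower, beside 0.998% of those genes. Of 6594 genes with a mean of 1 to 10 FPKM other than small and predicted RNAs, 3 had a higher difference. Over all 11121 genes Per2 was less extreme, with 99.0% of genes at a lower difference. A mutant allele may still be transcribed, and values per gene do not show which exons were read, so the level of Per2 does not check the genotype labels.

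The proportions of the 3 Per genes differed between the libraries through Per2, while their order was the same. Per1 (chromosome 11, 69095217 to 69109960), which is quickly induced by light in the brain's pacemaker, was the highest core clock gene in both libraries. It stood at 6.65 FPKM in the Per2def library and 4.87 FPKM in the Per2wt library, a difference of 0.38. Roughly 838 fragments came from it in the Per2def library, against 494 in the Per2wt library. Per3 (chromosome 4, 151003652 to 151044665), a weaker member of the family, stood at 1.97 FPKM in the Per2def library and 1.89 FPKM in the Per2wt library, a difference of 0.04. Per2 therefore stood at 0.925 of the level of Per1 in the Per2def library and at 0.403 of it in the Per2wt library. Relative to Per3, whose own level was close in both libraries, Per2 was at 3.12 times its level in the Per2def library and at 1.04 times in the Per2wt library. Per2 made up 41.6% of the summed Per RNA level in the Per2def library and 22.5% in the Per2wt library.

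The Cry genes, which encode the direct inhibitors of the BMAL1 and CLOCK pair, differed less. Cry1 (chromosome 10, 85131700 to 85185064) stood at 3.24 FPKM in the Per2def library and 3.22 FPKM in the Per2wt library, a difference of 0.007 whose sign turns under 2 of the 4 other scalings of the libraries. Cry2 (chromosome 2, 92403646 to 92434043) stood at 2.93 FPKM in the Per2def library and 2.42 FPKM in the Per2wt library, a difference of 0.20. Cry1 was the higher of the pair in both, at 1.11 times Cry2 in the Per2def library and 1.33 times in the Per2wt library. Exons of Cry2 share 295 bases with those of D930015M05Rik on the opposite strand, a transcript at 1.07 FPKM in the Per2def library and 0.530 FPKM in the Per2wt library. No source used here gives the strand setting of the counting, so reads from the shared bases cannot be told apart.

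**Figure D2:**
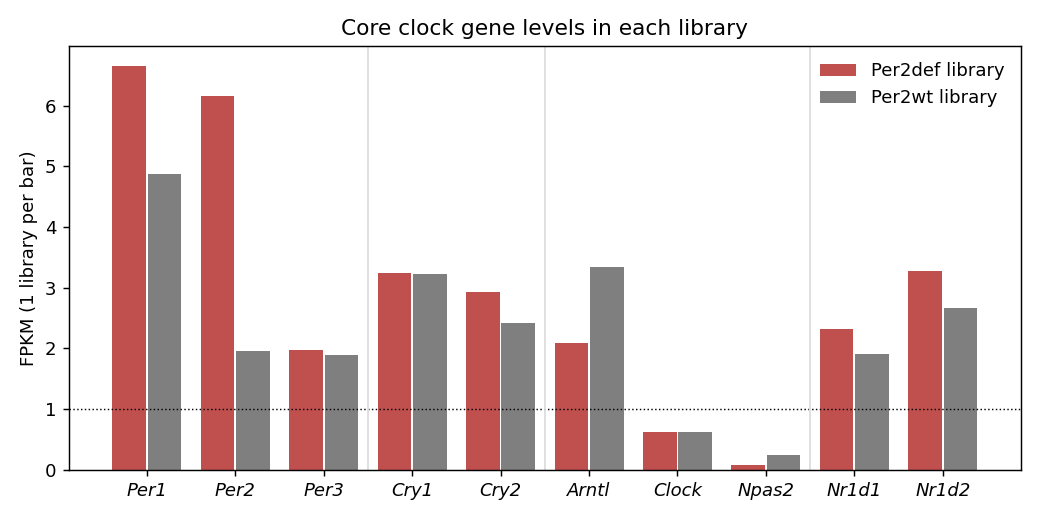
Bars give the FPKM of each core clock gene in the Per2def library (red, left) and the Per2wt library (grey, right), 1 library each, with the 1 FPKM floor as a dotted line. Per2 is at 6.16 FPKM in Per2def against 1.96 FPKM in Per2wt, Arntl at 2.09 FPKM in Per2def against 3.35 FPKM in Per2wt, and Clock and Npas2 lie under the floor in both.

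The activator arm went the other way through Arntl. Arntl (ENSMUSG00000055116.8, chromosome 7, 113207465 to 113314126, plus strand), without which mice lose behavioural rhythms, stood at 2.09 FPKM in the Per2def library and 3.35 FPKM in the Per2wt library, a difference of −0.49. It was the only gene of the 8 at 1 FPKM or more that was lower in the Per2def library, where 38% of all 11121 genes were lower. The values correspond to roughly 168 fragments in the Per2def library and 216 in the Per2wt library, so the deeper library held fewer. Of the 6594 genes with a mean of 1 to 10 FPKM, 81 had a lower difference, and of all 11121 genes 2.23% did. In rank among the 10 core clock genes, Arntl was the 7th highest in the Per2def library and the 2nd highest in the Per2wt library.

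The partners of Arntl were low in both libraries. Clock (chromosome 5, 76209868 to 76304792) stood at 0.626 FPKM in the Per2def library and 0.624 FPKM in the Per2wt library, a difference of 0.002 whose sign turns under each of the 4 other scalings. Because its annotated transcript is 9.74 kb long, this low level still corresponds to roughly 164 fragments in the Per2def library and 132 in the Per2wt library. Npas2 (chromosome 1, 39193731 to 39363236), the alternative partner best known from the forebrain, stood at 0.0705 FPKM in the Per2def library and 0.241 FPKM in the Per2wt library, a difference of −0.21. That is roughly 8 fragments in the Per2def library against 22 in the Per2wt library, the fewest of the 10 genes, and a plain ratio of 0.293. Arntl was at 3.35 times the level of Clock in the Per2def library and 5.37 times in the Per2wt library.

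The REV-ERB genes were slightly higher together. Nr1d1 (chromosome 11, 98767932 to 98775333), which encodes REV-ERB alpha, stood at 2.31 FPKM in the Per2def library and 1.90 FPKM in the Per2wt library, a difference of 0.19. Nr1d2 (chromosome 14, 18204054 to 18239127), which encodes REV-ERB beta, stood at 3.27 FPKM in the Per2def library and 2.66 FPKM in the Per2wt library, a difference of 0.22. Nr1d1 was at 0.707 of the level of Nr1d2 in the Per2def library and 0.716 in the Per2wt library, so the balance within the pair was nearly the same. Exons of Nr1d1 share 263 bases with those of Thra on the opposite strand, the thyroid hormone receptor gene, which stood at 10.5 FPKM in the Per2def library and 11.0 FPKM in the Per2wt library. Nr1d1 is the less abundant of that overlapping pair, so its values are uncertain to the extent that reads were shared.

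**Figure D3:**
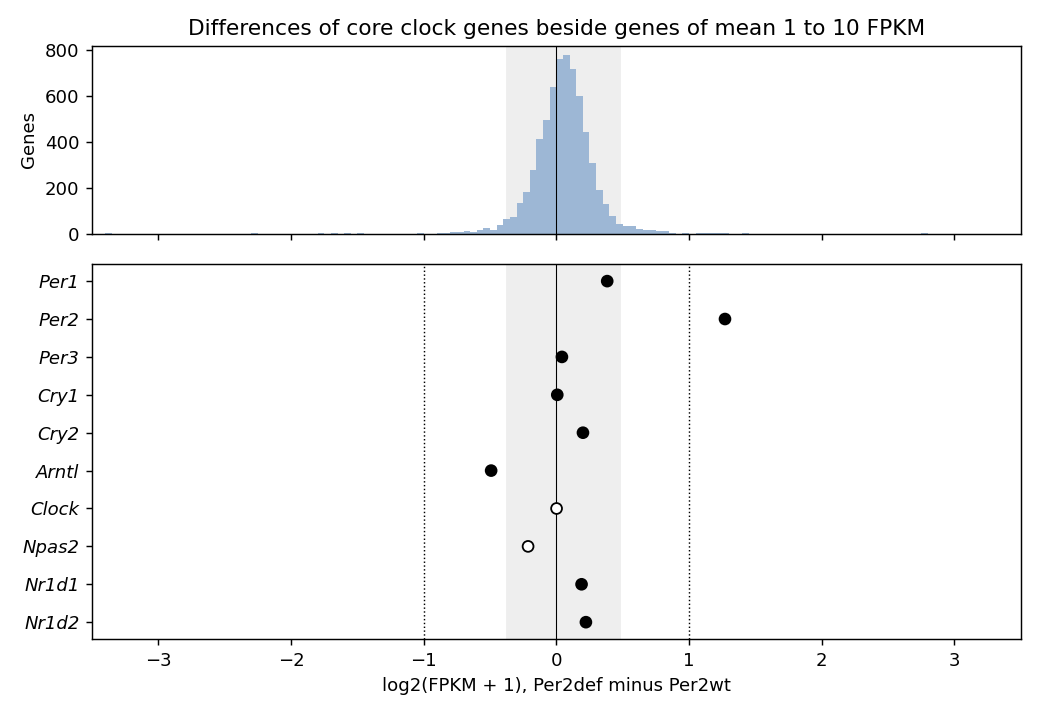
The upper panel is a histogram of log2(FPKM + 1) differences, Per2def minus Per2wt, for 6594 genes with a mean of 1 to 10 FPKM, and the lower panel gives each core clock gene (open circles, under 1 FPKM in both libraries). Shading marks the middle 95% of the histogram and dotted lines mark 2-fold. Per2 at 1.27 and Arntl at −0.49 lie outside the shading. The other points lie inside it, but Clock and Npas2 are below the level range of the histogram genes. Npas2, at 0.241 FPKM in the Per2wt library, could not have fallen below the shading on this scale.

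Across the 8 core clock genes at 1 FPKM or more, 7 were higher in the Per2def library, where 62% of all genes were, and Cry1 is among the 7 only by the difference of 0.007. Their median difference was 0.20, and 0.19 without Per2, beside a median of 0.05 over all 11121 genes. The middle 95% of the 6594 genes with a mean of 1 to 10 FPKM ran from −0.38 to 0.48. Per2 and Arntl were the only ones of these 8 core clock genes outside it. This range describes genes within one pair of libraries and is not a replicate error.

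The balance of the loop can be read inside each library, where the scaling of that library cancels. Repressor RNA from the 3 Per and 2 Cry genes summed to 21.0 FPKM in the Per2def library and 14.4 FPKM in the Per2wt library, and activator RNA from Arntl, Clock and Npas2 to 2.79 FPKM in the Per2def library and 4.21 FPKM in the Per2wt library. The ratio of repressors to activators was thus 7.51 in the Per2def library and 3.41 in the Per2wt library, a ratio of ratios of 2.20 (1.14 on the log2 scale). Without Per2 the ratio was 5.30 in the Per2def library and 2.94 in the Per2wt library, so the library labelled Per2def remained the higher, by 0.85 on the log2 scale. With the Cry genes alone as repressors they were 2.21 in the Per2def library and 1.34 in the Per2wt library. The numerator then differed little, with Cry RNA summing to 6.17 FPKM in the Per2def library and 5.64 FPKM in the Per2wt library, so most of that step lay in the activators. The 2 Nr1d genes together stood at 2.67 times Arntl in the Per2def library and 1.36 times in the Per2wt library. Per RNA was 2.40 times Cry RNA in the Per2def library and 1.55 times in the Per2wt library. Arntl made up 75.0% of the activator sum in the Per2def library and 79.5% in the Per2wt library.

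**Figure D4:**
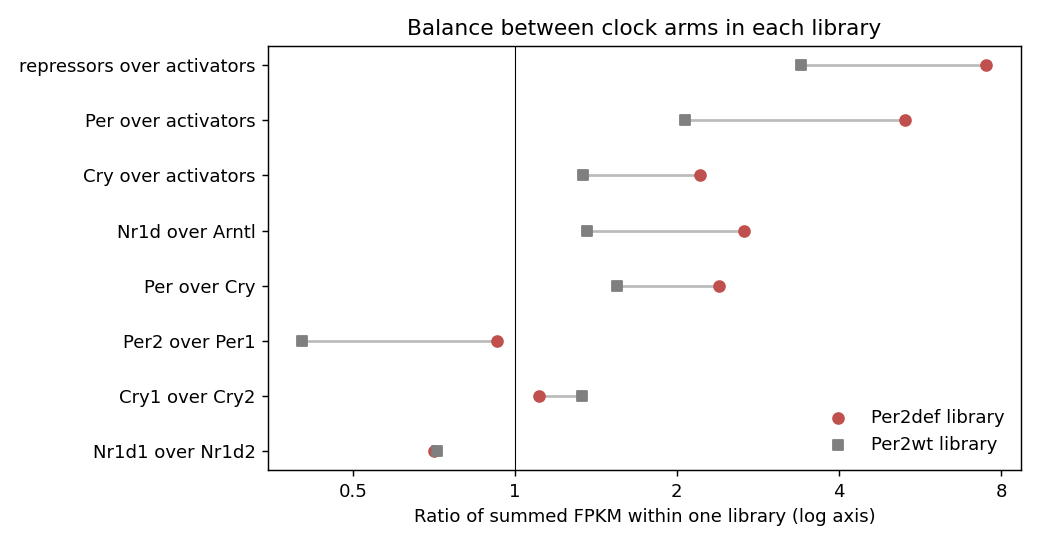
Points give ratios of summed FPKM within the Per2def library (red circles) and within the Per2wt library (grey squares), on a log axis. Repressors over activators stand at 7.51 in Per2def against 3.41 in Per2wt, whereas Nr1d1 over Nr1d2 stands at 0.707 in Per2def against 0.716 in Per2wt.

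No gene of the wider clock network reached a 2-fold difference. Of 65 other clock genes in 7 lists, 56 reached 1 FPKM, and of these 40 were higher and 16 lower in the Per2def library, with a median difference of 0.05. Over all 11121 genes 62% were higher, the median was also 0.05, and 1.25% passed the 2-fold threshold upwards and 0.998% downwards. The counts of higher genes in each list below stand beside that 62%. The 6 ROR and BHLHE factors, which act on the same ROR elements and E-boxes as the core genes, were all under 1 FPKM in both libraries and summed to 2.07 FPKM in the Per2def library and 2.14 FPKM in the Per2wt library. Of the 4 genes of factors that bind D-boxes, 3 were higher in the Per2def library. The activator gene Dbp stood at 2.24 FPKM in the Per2def library and 2.07 FPKM in the Per2wt library, the activator gene Tef at 4.34 FPKM in Per2def and 3.25 FPKM in Per2wt, and the gene of their antagonist, Nfil3, at 1.51 FPKM in Per2def and 1.32 FPKM in Per2wt. The activator gene Hlf was lower, at 15.8 FPKM in the Per2def library and 20.3 FPKM in the Per2wt library. Per3, whose promoter held the 2 D-boxes, was nearly level.

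Among 10 measured kinases of clock proteins 8 were higher (median 0.10), beside 62% of all genes. Csnk1e, whose product marks PER proteins for degradation, was the exception in size, at 7.85 FPKM in the Per2def library and 11.7 FPKM in the Per2wt library (−0.52), whereas Csnk1d, which encodes the closely related CK1 delta, was at 23.1 FPKM in Per2def and 22.5 FPKM in Per2wt (0.03). The other kinase genes of largest difference were Csnk2b (0.22), Prkaa1 (0.22), a subunit of the energy sensor AMPK, and Gsk3b (0.19). Of 9 measured ubiquitin ligase and deubiquitinase genes 6 were higher (median 0.11, range −0.14 to 0.18). Fbxw11, which acts on PER proteins, stood at 7.13 FPKM in the Per2def library and 7.94 FPKM in the Per2wt library (−0.14). Ube3a (0.18) and Usp7 (0.13) were also among the largest. Of 20 coregulator genes 15 were higher (median 0.04), among them the acetyltransferase gene Kat5 (0.22), Cul4a (0.20) and Kdm5a (0.19).

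Of 11 genes on the routes that induce Per1 and Per2, 6 were higher (median 0.01), with a range of −0.11 to 0.22. The largest differences among them were Crem, a cAMP-responsive factor gene, at 1.32 FPKM in the Per2def library and 0.990 FPKM in the Per2wt library (0.22), Atf1 (0.21), Crtc1 (−0.11) and Mrtfb, listed as Mkl2 (−0.08). Timeless (0.35) and its partner gene Tipin, at 31.8 FPKM in Per2def and 25.4 FPKM in Per2wt (0.31), were both higher. Their products act together at replication forks, and the place of mammalian Timeless in the clock is less settled than that of its fly relative. Csnk1d was named after its values had been seen.

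**Figure D5:**
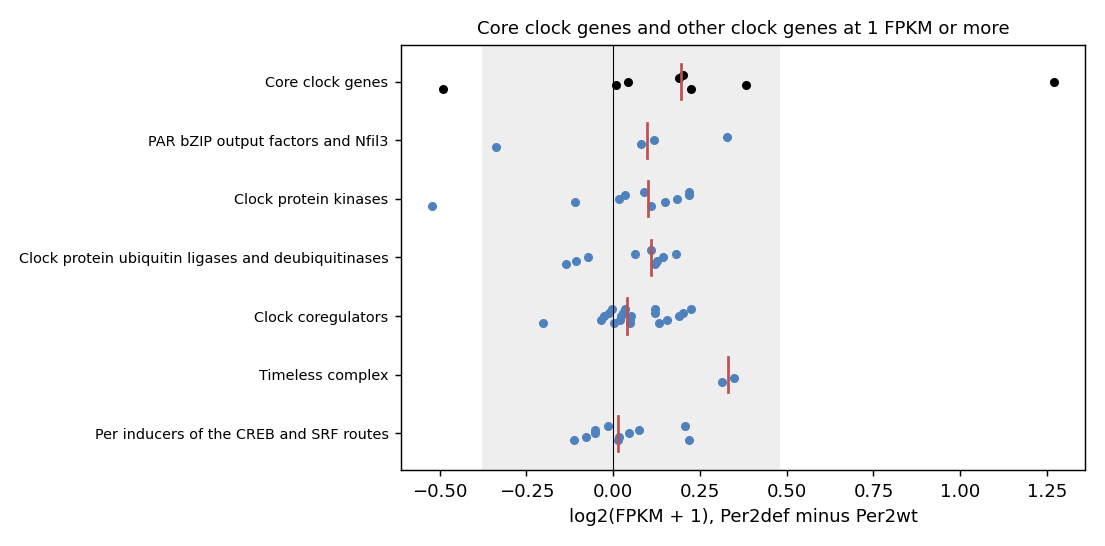
Each point is a gene that reached 1 FPKM in one library or both, placed by its log2(FPKM + 1) difference, Per2def minus Per2wt, with core clock genes in black, 6 other lists in blue, list medians as red lines and the middle 95% of genes of mean 1 to 10 FPKM shaded. Per2 at 1.27 stands apart, and Arntl (−0.49) and Csnk1e (−0.52) lie below the shading.

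Markers of other blood cells also differed between the libraries. Of 10 neutrophil markers 9 were higher in the Per2def library, beside 62% of all genes, and 6 were at least 2-fold higher, beside 1.25% of all genes. Their median difference was 1.12, and the list summed to 977 FPKM in the Per2def library and 514 FPKM in the Per2wt library. The remaining neutrophil marker, Retnlg, was listed at 0 in the Per2def library and at 2.16 FPKM in the Per2wt library. The 10 erythroid markers split 5 and 5, of which 2 were at least 2-fold lower in the Per2def library, and summed to 507 FPKM in Per2def and 572 FPKM in Per2wt. These 2 were the globin genes Hbb-bs, at 0.00297 FPKM in Per2def and 29.2 FPKM in Per2wt, and Hba-a2, at 9.50 FPKM in Per2def and 67.8 FPKM in Per2wt. Both have near-identical copies with which they can share reads, so these values are uncertain. Car1, the carbonic anhydrase gene of early erythroid cells, went the other way and made up the largest share of the sum, at 294 FPKM in Per2def and 177 FPKM in Per2wt. The 8 lymphocyte markers summed to 4.22 FPKM in Per2def and 2.06 FPKM in Per2wt, with none at 0 in both. Only 2 of them reached 1 FPKM, Cd3g at 1.41 FPKM in Per2def and 0.266 FPKM in Per2wt, and Cd4 at 1.07 FPKM in Per2def and 0.542 FPKM in Per2wt. The 6 megakaryocyte markers summed to 33.1 FPKM in Per2def and 33.9 FPKM in Per2wt. The 7 stromal and endothelial markers summed to 16.2 FPKM in Per2def and 14.9 FPKM in Per2wt, and 3 of them reached 1 FPKM. Most of that sum was Pecam1, at 11.9 FPKM in Per2def and 10.1 FPKM in Per2wt. The part of these marker differences in the clock gene differences was not tested. In bulk RNA a change in the share of a cell type and a change of RNA per cell cannot be told apart.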

How the data were processed

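RNA-seq of sorted bone marrow stem cells from Per2def and Per2wt mice was used, 1 library each, with groups taken from the genotype label. Poly(A) RNA was made into strand-marked libraries, per the labels' protocols. The authors' deposited values are FPKM per gene from Cufflinks, per the file headers. CASAVA 1.8, TopHat, Bowtie2 and the builds GRCm38 and mm10 are named in the submitters' processing notes. No annotation or strand setting is given in these sources. FPKM follow each library's own total, so abundant rows move all others.

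Rows carrying the Cufflinks flag for too much data (9) or a date for a symbol (27) were left out and rows sharing a symbol were summed. Differences are log2(FPKM + 1), Per2def minus Per2wt, with a 2-fold threshold and a floor of 1 FPKM in one library or both. No test was made. Named genes were the 10 members and the 4 largest differences in each list of other clock genes at the floor, 2 of which are not reported here. Members and lists were chosen with earlier results of these data known. The range of 1 to 10 FPKM was chosen after the values were seen. Of the list genes, Mrtfa and Mrtfb were found under the older names Mkl1 and Mkl2. Fragment numbers used single-transcript genes of at least 3 kb in GENCODE M21 (GRCm38), which also gave coordinates. In these genes 1 step was found with both libraries pooled on the Per2wt scale, 0.0461 FPKM times kb, from 26 of 470 values. The Per2def step, 0.0371, is that step times the commonest ratio of 0.805 and was not found separately. Alternatives were 4 scalings, pseudocounts of 0.1 and 0.5 FPKM, other floors and folds, the highest row per symbol and other forms of the arm ratio. Procedures were tested on simulated data, with large planted changes in genes above the Per2wt levels of the core clock genes. That setting does not cover small differences in low genes. Python 3.11.15, pandas 2.3.3 and numpy 2.4.6 were used.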

Additional observations from a re-analysis of the deposited data

How the results depend on the processing

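With the pseudocount at 0.1 FPKM the Per2 difference was 1.60 and with 0.5 FPKM it was 1.43, and the count of genes at least 2-fold higher in the Per2def library was 217 with 0.1 FPKM, against 139 with 1 FPKM. At thresholds of 1.5-fold and 4-fold that count was 290 and 87, and the count of genes at least 2-fold lower, 111, was 189 at 1.5-fold. With a floor of 5 FPKM the median over core clock genes was 0.83, because only Per1 and Per2 passed it. The log2 ratio of repressor to activator ratios, 1.14, was 0.62 with the mean of log2(FPKM + 1) per arm, 0.85 without Per2, 1.36 with Per genes only and 0.73 with Cry genes only. The Cry1 difference turned to −0.0347 with the median of ratios and to −0.0290 with the upper quartile. The Clock difference turned to −0.0192 and −0.0163 with these, to −0.0017 with a fixed total and to −0.0013 with a fixed total without small and predicted RNAs. Of 70 member differences under alternatives, 59 kept their sign and moved by less than 0.1 on the log2 scale, 5 moved further and 6 changed sign. The 5 were those of Per2, Npas2 and Arntl with lower pseudocounts. Taking the highest row per symbol could not move any difference, since each core clock gene is a single row. The largest scaling shift between the libraries was −0.0549 on the log2 scale, under the limit of 0.1. The count of 59 therefore says little about stability. The count of core clock genes higher in the Per2def library was 8 of 10, and 6 with the median of ratios. No paired analysis was possible because each genotype has 1 library, and no library can be left out. Depth limits Npas2 most.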

Other observations

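Arntl2, a paralogue of Arntl outside the 10 genes and chosen after its values were seen, was listed at 0.172 FPKM in the Per2def library and 0.0337 FPKM in the Per2wt library, which is 8.21% of the Arntl level in Per2def and 1.01% in Per2wt. Both values lay far under the 1 FPKM floor, and Arntl itself was lower in the Per2def library, so these percentages are uncertain.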
